A study of Mus musculus with 6 samples.

Results

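The natriuretic peptide system and the cGMP signal it sends were described in mouse aortic valves through 9 genes, taken by gene name from a table of 46983 genes. They comprise 3 ligand genes (Nppa, Nppb and Nppc), 3 receptor genes (Npr1, Npr2 and Npr3), the ligand-activating protease gene Corin, the kinase gene Prkg1 and the phosphodiesterase gene Pde5a. RNA was sequenced from the valves of wild-type C57BL/6J mice taken on postnatal day 2 (PND2) or 4 months after birth. Each age has 3 libraries, which the labels call biological replicates. Each library held the pooled valves of 5 to 6 mice, so the spread between libraries is a spread between pools and not between single animals. No allele or treatment sets the groups apart, and age is the comparison. Values are RPKM, reads scaled by exonic length and by the library total, so levels of different genes can be set side by side per length.

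Natriuretic peptides are hormones and local signals made as inactive precursors. Atrial natriuretic peptide (Nppa) and B-type natriuretic peptide (Nppb) come mainly from heart muscle cells, and the membrane protease corin cuts the precursor of the former. C-type natriuretic peptide (Nppc) is made by endothelial and other cells and acts nearby. Both cardiac peptides bind the receptor guanylate cyclase encoded by Npr1, C-type peptide binds the one encoded by Npr2, and each cyclase makes cGMP inside the cell. The clearance receptor encoded by Npr3 lacks a cyclase and takes the peptides up. cGMP switches on the kinase encoded by Prkg1, which relaxes smooth muscle among other actions, and the enzyme encoded by Pde5a breaks cGMP down. Nitric oxide feeds the same signal through soluble guanylate cyclase.

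Nppb and Nppa are neighbours on the plus strand of chromosome 4 (mm10). Nppb (ENSMUSG00000029019) runs from 147985788 to 147987205, Nppa (ENSMUSG00000041616) from 148000722 to 148002079, and 13516 bp lie between them. All 9 genes had a promoter entry in RefSeq (GRCm38.p6), and the 250 bases before each start were searched on both strands for 4 short motifs. The motifs were GATAA (the core bound by GATA factors), CATTCC (the MCAT element), TATAAA (the TATA box) and AAGTG (the core bound by NKX2-5). No match in these windows shared a base with another. The Nppa window and the Nppb site are shown because the levels of these neighbours are described together below, and capitals mark the motifs on either strand.
Nppa, chr4:148000472-148000721, plus strand: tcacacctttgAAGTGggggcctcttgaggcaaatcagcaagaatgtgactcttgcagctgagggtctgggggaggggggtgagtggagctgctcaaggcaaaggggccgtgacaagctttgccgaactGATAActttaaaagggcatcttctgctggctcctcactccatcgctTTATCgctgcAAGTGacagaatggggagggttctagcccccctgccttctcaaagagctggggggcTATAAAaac
Nppb, chr4:147985794-147985823, plus strand: aGGAATGcagctGATAAatcagaGATAAcc
The Nppb site is given as 30 bases only, from 106 to 77 bases before the RefSeq start, because another annotated Nppb transcript has an exon there. Both windows held 2 GATAA matches, and GATAA was in 22.6% of the 32851 promoter windows searched. Of the 10 windows of the 9 genes, that of Nppb alone held CATTCC (12.6% of all windows). TATAAA began 31 bases before the start of Nppb, 29 before that of Nppc and 9 before that of Nppa, and was in 12.4% of all windows. AAGTG was found 2 times in the Nppa window and in 40.7% of all windows. A match describes letters only and is no evidence of binding.

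The library totals were inferred from the RPKM values, with the smallest exon values taken as 1 read. They ran from 23810507 to 38994657, so a count of 1 on 1 kb of exon was worth 0.0256 to 0.0420 RPKM. The sources used here do not say whether these totals are of reads or of read pairs, and counts summed over genes came to 2.31 to 2.36 times the totals. Counts recovered from the RPKM values are called reads below, and they and the counting intervals made from them carry that doubt. With either unit, a sequenced fragment was counted more than once on average, so the counting intervals may be too narrow. The valves were dissected with as little heart muscle as possible, yet markers of heart muscle were present in every library, and markers of several cell types moved with age. Rises and falls of markers are calls by limma at an adjusted p under 0.05, beside 14.7% called higher and 21.1% lower over all genes tested. The 19 cardiomyocyte markers summed to between 21577 and 24682 RPKM at PND2 and between 8692 and 15919 at 4 months, with none at 0; 10 fell (Myh7, Myl2 and Actc1 by most), Mb rose and 8 were not called. Of the 8 endothelial markers 7 fell (Emcn, Tie1 and Cdh5 by most), and the sum went from between 431 and 599 to between 254 and 276 RPKM. Of the 7 smooth muscle markers 6 rose (Myh11, Smtn and Lmod1 by most), with sums of 7429 to 8590 and of 16820 to 27858 RPKM. Adipocyte markers rose in 5 of 6 (Cfd, Cidec and Adipoq by most), from sums of 63.8 to 147 up to 322 to 1391 RPKM, the highest in 4 months replicate 2, and Cidec and Lep had no read at PND2. Macrophage markers rose in 5 of 5 (Ptprc, Adgre1 and C1qa by most), from 111 to 135 up to 246 to 315 RPKM. Of 7 interstitial and fibroblast markers 2 rose (Dcn and Lum) and 3 fell, with sums of 5955 to 6395 and 7652 to 9662 RPKM. All 7 were present in every library, and they mark fibroblasts as well as valve interstitial cells. In pooled tissue, fewer cells of a type and less RNA per cell cannot be told apart.

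All 9 genes passed the filter of an RPKM of at least 0.1 in 3 libraries. Npr1, Npr2 and Pde5a rose, Nppb, Npr3 and Corin fell, and Nppa, Nppc and Prkg1 were not called (limma on log2(RPKM + 0.1), adjusted p under 0.05). Over all 25903 genes tested, 14.7% were called higher and 21.1% lower at 4 months, 35.8% in all. With a fold change over 2 as well, Pde5a, Nppb and Npr3 were called, 3 of 9, against 17.2% of all genes. The libraries of the ages did not overlap for 6 of the 9 genes, against 50% of all genes. The median log2 fold change was -0.35 over the 9 genes and -0.14 over all genes tested. Scaling the libraries to their median moved the latter to -0.02 and the split of all calls from 3810 higher and 5463 lower to 4601 and 4129. Every fold change below can be read against that shift of -0.14; none of the 9 changed its sign with median or quantile scaling.

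At PND2 the levels ran in the order Nppa, Nppb, Npr2, Corin, Npr1, Npr3, Pde5a, Prkg1 and Nppc. The libraries of Npr2 and Corin overlapped, as did those of Corin and Npr1 and those of Npr3 and Pde5a. At 4 months the order was Nppa, Npr2, Npr1, Corin, Nppb, Pde5a, Prkg1, Npr3 and Nppc. Each neighbouring pair in that order overlapped except Npr1 with Corin and Pde5a with Prkg1.

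Nppa was the most abundant of the 9 at both ages on average, and its libraries at 4 months spread further than almost any other gene. It stood at 327, 479 and 706 RPKM at PND2 (504 ± 191, SD, n = 3). The libraries at 4 months held 874, 502 and 40.7 RPKM (472 ± 418, n = 3). The highest and the lowest of the 6 values were both at 4 months, so the ages overlapped and replicate 3 lay far below the other two. The log2 fold change was -0.88 with a standard error of 1.04 (adjusted p = 0.553, 95% interval -3.31 to 1.56). Without 4 months replicate 3 it was 0.46, with the opposite sign (adjusted p = 0.409; 0.217 to 1 over all alternatives). The SD of log2(RPKM + 0.1) at 4 months was 2.36, the 96th widest of 20000 genes with a mean RPKM of at least 1, whose median SD was 0.18. The antisense gene Gm13054 shares 532 of the 865 exonic bp of Nppa. It followed the same course, from 290 to 274 RPKM on average, and the sources used here do not say whether reads were counted by strand, so those of this pair cannot be told apart.

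Nppb was lower at 4 months in every library. It stood at 177, 89.7 and 105 RPKM at PND2 (124 ± 46.4, n = 3). At 4 months it stood at 2.13, 65.5 and 11.9 RPKM (26.5 ± 34.1, n = 3). The ages did not overlap, but the libraries at 4 months differed among themselves by up to 30.8 times, resting on 62, 1218 and 270 reads. The mean RPKM was 4.67 times lower at 4 months. The log2 fold change, a difference between means of log2 values and so not the same measure, was -3.30 (SE 1.07, limma adjusted p = 0.0479, 95% interval -5.80 to -0.79). This call was lost in 14 of 18 alternatives, among them the omission of any library other than 4 months replicate 2. Without 4 months replicate 1 the log2 fold change was -2.08 (adjusted p = 0.062), and without 4 months replicate 2, the highest of that age, it was -4.52 and called (adjusted p = 0.00532). Over all alternatives the adjusted p ran from 0.00532 to 0.266. No other annotated gene overlaps its exons.

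The library with the least Nppa was not the one with the least Nppb. The ratio of Nppa to Nppb was 1.85, 5.35 and 6.73 at PND2 and 411, 7.67 and 3.40 at 4 months (2-sided exact permutation p = 0.4). The 411 came from 4 months replicate 1, which had the most Nppa and the least Nppb of all 6 libraries. Chamber markers differed between the same libraries. The summed RPKM of the mainly ventricular light chain genes Myl2 and Myl3 was 4587, 4599 and 5216 at PND2 and 480, 2576 and 1818 at 4 months, lowest in 4 months replicate 1. The summed RPKM of the mainly atrial Myl4, Myl7 and Sln was 1686, 1627 and 638 at PND2 and 2159, 1136 and 729 at 4 months, highest in that same library. The atrial sum over the ventricular sum was 0.368, 0.354 and 0.122 at PND2 and 4.50, 0.441 and 0.401 at 4 months (2-sided exact permutation p = 0.1, the smallest that 3 against 3 libraries allow). Of the PND2 libraries, replicate 3 had the lowest atrial sum, the highest ventricular sum and the most Nppa. The part of heart muscle RNA in the levels of Nppa and Nppb was not tested.

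**Figure D1:**
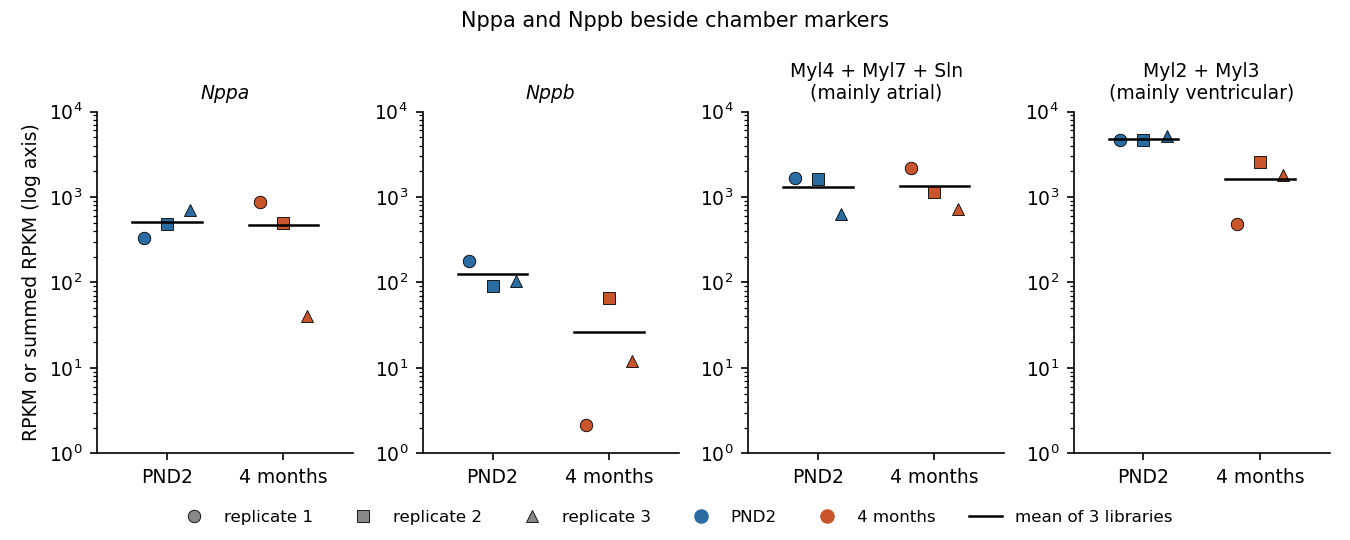
RPKM of Nppa and Nppb and summed RPKM of mainly atrial (Myl4, Myl7, Sln) and mainly ventricular (Myl2, Myl3) genes in each library, on 1 shared log axis, with replicate numbers as symbols and the mean of each age as a bar. In 4 months replicate 1 (circle), Nppa (874) and the atrial sum (2159) are the highest and Nppb (2.13) and the ventricular sum (480) the lowest of the 6 libraries.

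Nppc, the ligand of the Npr2 receptor, was the least abundant of the 9 genes at both ages on average. It stood at 3.22, 0.755 and 1.80 RPKM at PND2 (1.93 ± 1.24, n = 3). The libraries at 4 months held 1.16, 2.94 and 4.87 RPKM (2.99 ± 1.86, n = 3), from 45 to 147 reads a library. The ages overlapped, and the log2 fold change was 0.60 (SE 0.63, adjusted p = 0.497, 95% interval -0.87 to 2.08). Leaving out single libraries moved it between 0.09 (without PND2 replicate 2) and 1.15 (without 4 months replicate 1), called in none of the 6 fits.

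The cyclase receptors rose with age while the clearance receptor fell. Npr1 stood at 42.5, 36.2 and 42.9 RPKM at PND2 (40.5 ± 3.78, n = 3). At 4 months it stood at 81.2, 68.1 and 74.6 RPKM (74.6 ± 6.52, n = 3). All libraries at 4 months were higher, 1.84 times on average, with a log2 fold change of 0.88 (SE 0.11, adjusted p = 0.00119). The antisense gene Gm16048 shares 559 of its 4783 exonic bp and went from 42.3 to 80.2 RPKM on average.

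Npr2 stood at 45.7, 58.8 and 49.4 RPKM at PND2 (51.3 ± 6.73, n = 3). The libraries at 4 months held 75.4, 68.7 and 82.2 RPKM (75.4 ± 6.72, n = 3). The rise was 1.47 times, with no overlap between the ages and a log2 fold change of 0.56 (SE 0.12, adjusted p = 0.0113). The call was lost in 2 of 18 alternatives, the unequal-variance test (adjusted p = 0.0747) and a floor of 10 reads (adjusted p = 0.0625), and its adjusted p ran from 0.00466 to 0.0747. The antisense gene Gm12473 shares 266 of its 4667 exonic bp.

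Npr3 stood at 18.5, 11.0 and 13.8 RPKM at PND2 (14.4 ± 3.78, n = 3). At 4 months it stood at 4.86, 6.91 and 4.19 RPKM (5.32 ± 1.42, n = 3). The mean was 2.71 times lower, every library at 4 months lay below every one at PND2, and the log2 fold change was -1.42 (SE 0.25, adjusted p = 0.00457). The fall was called in all alternatives but the unequal-variance test (adjusted p = 0.0576; 0.00102 to 0.0576 over all). Endothelial markers fell over the same ages (7 of 8), and their part in the level of Npr3 was not tested.

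As shares of the summed RPKM of the 3 receptor genes, Npr3 made up 17.3, 10.4 and 13.0% at PND2 and 3.01, 4.81 and 2.60% at 4 months. Its mean share went from 13.6 ± 3.50% to 3.47 ± 1.17%, without overlap (2-sided exact permutation p = 0.1, the smallest possible). Npr1 took 38.1 ± 3.48% at PND2 and 48.0 ± 2.04% at 4 months, also without overlap (exact permutation p = 0.1). The share of Npr2 was 48.3 ± 6.49% and 48.5 ± 2.26%, and its libraries overlapped (exact permutation p = 0.9). Per length, the ratio of Npr1 to Npr3 was 2.30, 3.27 and 3.11 at PND2 and 16.7, 9.86 and 17.8 at 4 months. The ratio of Npr2 to Npr3 was 2.47, 5.32 and 3.58 at PND2 and 15.5, 9.94 and 19.6 at 4 months. The smallest ratio at 4 months exceeded the largest at PND2 in both cases (2-sided exact permutation p = 0.1 each).

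**Figure D2:**
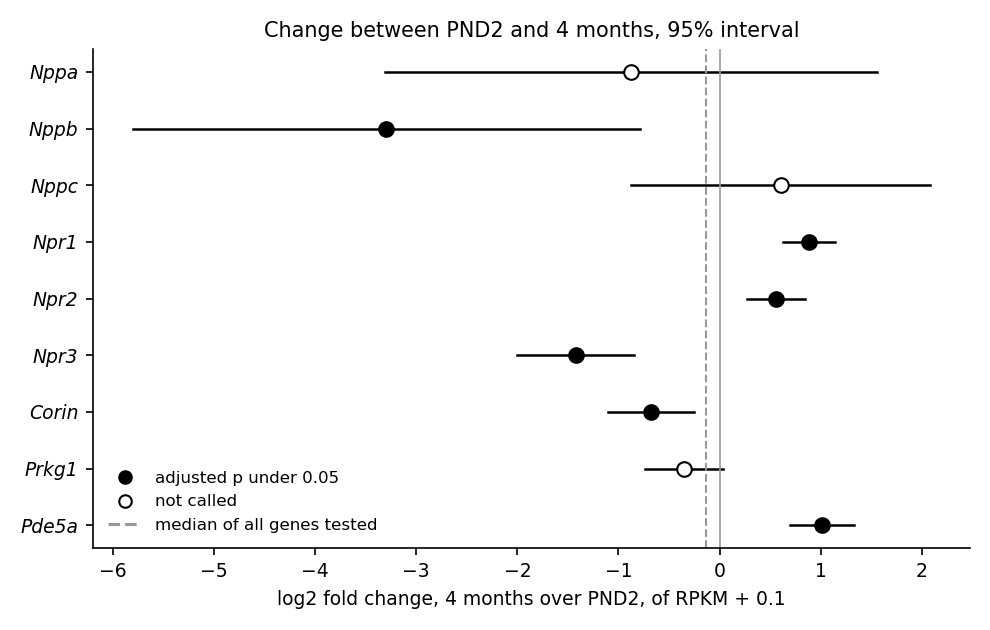
Log2 fold change from PND2 to 4 months (points; filled where the adjusted p was under 0.05) with its 95% interval (bars) for the 9 genes; the solid line is 0 and the dashed line the median of all genes tested, -0.14. The intervals of Nppa, Nppb and Nppc are wide, and those of Npr1, Npr2 and Pde5a lie above 0.

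Corin encodes the protease that activates the Nppa product. It stood at 53.6, 42.1 and 48.4 RPKM at PND2 (48.0 ± 5.76, n = 3). The libraries at 4 months held 38.3, 29.2 and 23.8 RPKM (30.4 ± 7.30, n = 3). The ages did not overlap, the mean was 1.58 times lower, and the log2 fold change was -0.68 (SE 0.18, adjusted p = 0.0249). The call was lost in 7 of 18 alternatives, among them without PND2 replicate 1 (-0.60, adjusted p = 0.0665), without PND2 replicate 3 (-0.67, 0.0696), without 4 months replicate 2 (-0.66, 0.0647) and without 4 months replicate 3 (-0.51, 0.0679), and its adjusted p ran from 0.00856 to 0.147. The lowest value of Corin was in the library with the least Nppa, 4 months replicate 3. The antisense gene Gm20647 shares 147 of its 5400 exonic bp, and the part of the falling cardiomyocyte markers in its level was not tested.

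Of the genes acting after cGMP is made, Pde5a rose and Prkg1 was not called. Pde5a stood at 11.0, 14.3 and 11.8 RPKM at PND2 (12.4 ± 1.72, n = 3). At 4 months it stood at 27.4, 25.2 and 22.6 RPKM (25.1 ± 2.39, n = 3). All libraries at 4 months were higher, 2.03 times on average, with a log2 fold change of 1.02 (SE 0.14, adjusted p = 0.00155). The rise stood beside the rise of 6 of 7 smooth muscle markers, and the part of these cells in it was not tested.

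Prkg1 stood at 7.26, 9.68 and 8.33 RPKM at PND2 (8.42 ± 1.21, n = 3). The libraries at 4 months held 7.36, 6.70 and 5.70 RPKM (6.58 ± 0.836, n = 3). PND2 replicate 1 and 4 months replicate 1 were nearly level, so the ages overlapped. The log2 fold change was -0.35 (SE 0.16, adjusted p = 0.142, 95% interval -0.73 to 0.04).

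Prkg1 makes 2 kinase forms, I-alpha and I-beta, whose N-terminal ends come from different first exons. In GENCODE M21 (GRCm38) the upstream first exon lies at 31764557 to 31765033 of chromosome 19 (477 bp, minus strand) and begins a transcript coding for 671 residues. The downstream first exon lies at 31663971 to 31664370 (400 bp) and begins a transcript coding for 686 residues. The first exons lie 100 kb apart, and of the 212 exons listed for the 9 genes 211 have the same coordinates in both annotations. The windows before the starts are shown because reads from each first exon were counted separately, with capitals for the same motifs.
Prkg1 upstream start, chr19:31765034-31765283, minus strand: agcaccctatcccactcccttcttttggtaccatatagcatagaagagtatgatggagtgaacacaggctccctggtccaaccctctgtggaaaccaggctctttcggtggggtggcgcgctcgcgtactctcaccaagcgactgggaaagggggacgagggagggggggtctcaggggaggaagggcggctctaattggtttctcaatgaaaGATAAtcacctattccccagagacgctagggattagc
Prkg1 downstream start, chr19:31664371-31664620, minus strand: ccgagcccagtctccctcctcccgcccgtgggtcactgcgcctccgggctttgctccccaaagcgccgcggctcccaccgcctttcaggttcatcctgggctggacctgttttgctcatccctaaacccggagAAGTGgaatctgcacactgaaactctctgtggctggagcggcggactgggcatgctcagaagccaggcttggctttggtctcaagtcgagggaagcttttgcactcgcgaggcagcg
The G and C content of the upstream window was 55.2% and that of the downstream window 62.8%, against a median of 52.4% over all windows. The upstream window held 1 GATAA, the downstream window 1 AAGTG, and neither held TATAAA.

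The upstream first exon of Prkg1 stood at 5.75, 7.42 and 8.60 RPKM at PND2 and at 3.76, 4.75 and 3.11 RPKM at 4 months, without overlap. The downstream first exon stood at 2.95, 2.13 and 2.73 RPKM at PND2 and at 6.96, 1.78 and 6.91 RPKM at 4 months. Replicates 1 and 3 at 4 months were above all PND2 libraries, and replicate 2 was below them. Per length, the downstream exon took 33.9, 22.3 and 24.1% of the pair at PND2 (26.8 ± 6.23%, n = 3). At 4 months it took 64.9, 27.3 and 68.9% (53.7 ± 23.0%, n = 3; 2-sided exact permutation p = 0.2 against PND2). The 95% Wilson intervals, from 71 to 171 reads and for counting error only, were 57.7 to 71.5% in 4 months replicate 1, 18.0 to 39.1% in replicate 2 and 60.5 to 76.2% in replicate 3. The interval of replicate 2 thus lay apart from those of the other libraries of its age. It also had the highest adipocyte sum (1391 RPKM) and the lowest smooth muscle sum (16820 RPKM) at 4 months, and the part of either in the exon share was not tested.

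Use of the downstream first exon relative to the other Prkg1 exons was higher at 4 months by 1.33 on the log2 scale, which did not pass the test (limma voom and diffSplice, unadjusted p = 0.00224, adjusted p = 0.178). Without 4 months replicate 2 the difference was 1.89 and passed (adjusted p = 0.00795; 0.0761 to 1 in the other alternatives). The upstream exon differed by -0.51 (adjusted p = 1). Over the 9 genes 121 exons were tested and 0 were called, also by unweighted limma, against 0.65% of all 151186 exons tested. At an unadjusted p under 0.05 there were 2 of the 121, this exon and the last exon of Npr3 (0.52 on the log2 scale, adjusted p = 0.768). The share of all exons at that unadjusted threshold was not counted, so the 2 are listed as a description only. Apart from that Prkg1 exon, the differences in use ran from -0.70 to 0.68, both in Pde5a.

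**Figure D3:**
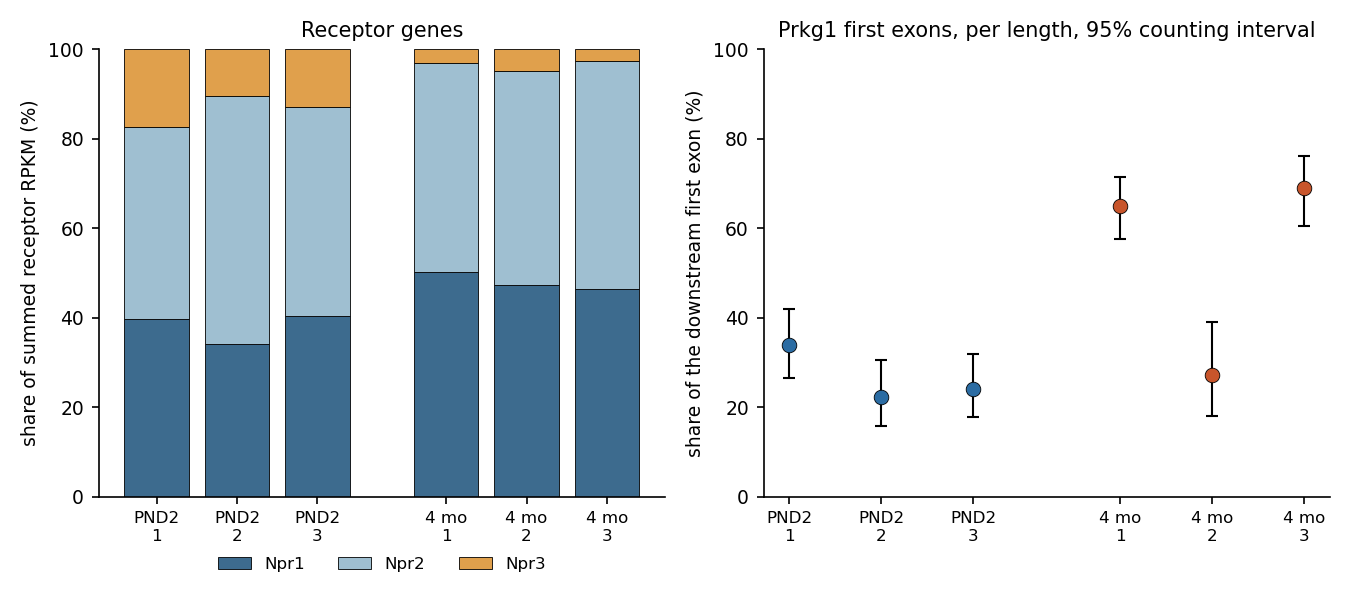
Left, shares of Npr1, Npr2 and Npr3 in their summed RPKM in each library (stacked bars, %); the Npr3 segment is at least 10.4% at PND2 and at most 4.81% at 4 months. Right, share of the downstream Prkg1 first exon in the pair of first exons per length (points, %) with 95% Wilson counting intervals (bars); replicates 1 and 3 at 4 months lie above the other 4 libraries.

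Beyond the 9 genes, 37 further genes of natriuretic peptide and cGMP signaling were read from the same table. Of these 32 were tested, 15 rose (11 with a fold change over 2), 3 fell and 14 were not called, beside 14.7% called higher and 21.1% called lower among all genes. The libraries of the ages did not overlap in 26 of the 32, against 50% of all genes. Their median log2 fold change was 0.50, against -0.14 over all genes tested. The 5 genes not tested (Guca2a, Guca2b, Gucy2c, Nos1 and Cnga1, named after their values were seen) were near 0, and Guca2b had no read in any library.

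All 4 genes of peptide processing and breakdown were called, 3 higher and 1 lower at 4 months. Furin, a protease that cuts natriuretic precursors, stood at 34.1, 37.3 and 31.6 RPKM at PND2 and at 21.2, 18.1 and 20.2 RPKM at 4 months. Its log2 fold change was -0.79 (SE 0.11, adjusted p = 0.00178). Pcsk6, named after its values were seen, encodes a related protease and was higher at 4 months, at 37.1 to 43.9 RPKM against 16.2 to 25.6 at PND2 (log2 fold change 0.96, adjusted p = 0.00487). Mme, which encodes the peptide-degrading enzyme neprilysin, stood at 1.91, 1.28 and 2.39 RPKM at PND2 and at 5.52, 4.16 and 3.53 RPKM at 4 months. Its log2 fold change was 1.22 (SE 0.28, adjusted p = 0.0146), opposite to that of the clearance receptor gene Npr3.

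Ostn encodes osteocrin, a peptide that binds the clearance receptor. It had 0 reads in all 3 PND2 libraries and stood at 1.04, 1.65 and 1.17 RPKM at 4 months. Taking 3 reads per library as the floor at PND2, it was at least 19.7-fold higher at 4 months (adjusted p = 2.94e-04). Of the 5 cyclase genes tested besides the receptors 3 rose. The soluble cyclase subunit gene Gucy1a3 stood at 45.3, 52.0 and 54.3 RPKM at PND2 and at 129, 94.9 and 79.2 RPKM at 4 months (log2 fold change 0.97, SE 0.18, adjusted p = 0.00573). Its partner Gucy1b3 stood at 70.3, 73.0 and 78.9 RPKM at PND2 and at 151, 115 and 112 RPKM at 4 months (0.75, SE 0.13, adjusted p = 0.00485). The other alpha subunit gene, Gucy1a2, stayed near 0.597 and 0.833 RPKM on average and was not called (adjusted p = 0.339).

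Of the nitric oxide synthase genes, that of endothelium fell. Nos3 stood at 72.0, 54.7 and 63.1 RPKM at PND2 and at 37.3, 33.2 and 47.4 RPKM at 4 months. The log2 fold change was -0.69 (SE 0.16, adjusted p = 0.0141), beside falls in 7 of 8 endothelial markers whose part in it was not tested. Nos2, the inducible synthase gene, named after its values were seen, rose from 0.413 ± 0.107 to 1.27 ± 0.588 RPKM (log2 fold change 1.34, adjusted p = 0.0386). The third gene that fell was Abcc5, named after its values were seen, which encodes a transporter that exports cGMP (33.7 ± 2.13 RPKM at PND2, 24.1 ± 1.13 at 4 months; log2 fold change -0.48, adjusted p = 0.00702). Of the 3 genes tested for cGMP export and gated channels, 2 rose and 1 fell. Abcc4, also named after its values were seen, rose from 1.36 ± 0.382 to 3.01 ± 0.240 RPKM (log2 fold change 1.12, limma adjusted p = 0.0118).

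Of the 7 genes for a further kinase and for kinase substrates, 5 rose and 2 were not called. Mrvi1, which encodes a kinase substrate that acts on the calcium release channel of the endoplasmic reticulum, stood at 11.8, 18.2 and 14.3 RPKM at PND2 and at 92.7, 75.0 and 77.9 RPKM at 4 months (log2 fold change 2.48, SE 0.17, adjusted p = 1.08e-04). Kcnma1, the pore of the large-conductance potassium channel, stood at 0.614, 0.966 and 0.803 RPKM at PND2 and at 7.05, 5.87 and 5.99 RPKM at 4 months (2.86, SE 0.23, adjusted p = 2.01e-04). These are genes of contractile cells too, and they rose beside 6 of 7 smooth muscle markers, whose part was not tested. The kinase gene Prkg2 stood at 0.802, 0.507 and 0.668 RPKM at PND2 and at 0.274, 0.336 and 0.328 RPKM at 4 months and was not called (adjusted p = 0.0628), though the ages did not overlap.

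The wider list held 10 further phosphodiesterase genes, taken by family name, and not each product (Pde6d among them) need break down cGMP itself. All 10 were tested and 0 were called by limma, against 35.8% of all genes tested. At an unadjusted p under 0.05 there were 6, and the share of all genes at that threshold was not counted. Voom on the recovered reads called 3 (Pde1b, Pde1c and Pde10a, named after their values were seen) and the unequal-variance test 0. The log2 fold changes of the 10 genes ran from -0.72 to 0.53, against 1.02 for Pde5a. The difference between Pde5a and the others was not tested.

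**Figure D4:**
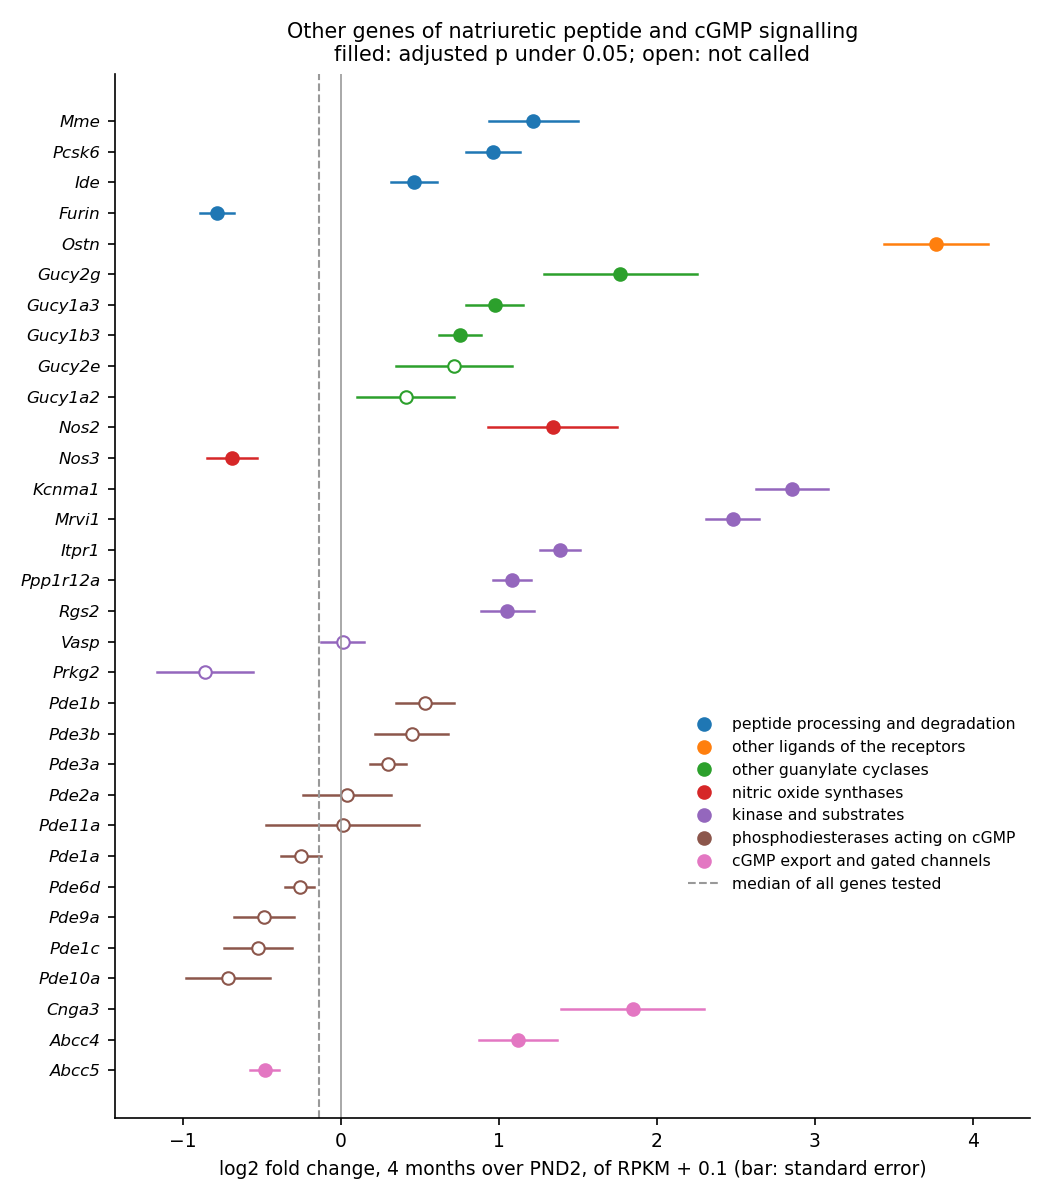
Log2 fold change from PND2 to 4 months (points; filled where the adjusted p was under 0.05) with its standard error (bars) for the 32 tested genes of the wider list, coloured by role; the dashed line is the median of all genes tested, -0.14. The 10 genes of the phosphodiesterase family lie between -0.72 and 0.53 and are all open, while 5 of the 7 kinase and substrate genes are filled on the right.

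For each of the 9 genes, the genes with the most similar course over the 6 libraries were sought among 20000 genes with a mean RPKM of at least 1, by the root mean square (RMS) difference of centred log2 values. Nearest to Nppa was its antisense partner Gm13054 (RMS 0.0327), which overlaps its exons and may share its reads, as described above. The pseudogenes Gm10580 (0.414) and Gm28155 (0.449) came far behind. Nppb had no close neighbour: Gm26298, Gm14024 and Gm27604 came nearest at 0.689, 0.691 and 0.771. Nppc was nearest to Sprr2a2 (0.345), Sprr2a1 (0.371) and n-R5s120 (0.416), and the Sprr2a pair may share reads. The receptors had close neighbours in Itm2b, Stk10 and Syt3 for Npr1 (0.0354 to 0.0552) and in Spryd3, Mxra7 and Capn1 for Npr2 (0.0411 to 0.0442). Npr3 was nearest to Tc2n (0.113) and Ccdc125 (0.127).

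Corin ran closest to the chemokine receptor gene Cx3cr1 (0.0361), then Gm12666 and C030034L19Rik. Prkg1 ran closest to Rfxap (0.0273), Diexf and Gm15702. Pde5a ran closest to Map1b (0.0400), to Cald1 (0.0444), which encodes the actin-binding protein caldesmon of smooth muscle, and to Tom1l2. With 6 libraries and 20000 genes, close courses of this kind are a description of these libraries.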

How the data were processed

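RNA-seq of pooled mouse aortic valves was measured in 3 libraries at PND2 and 3 at 4 months. The authors trimmed and filtered the reads of libraries made with a stranded kit, aligned them to mm10 with TopHat2 2.1.0, counted them over Ensembl 83 genes and exons with easyRNASeq 2.4.7 in R 3.2.2, and deposited the result as RPKM (read counts divided by the length of exon sequence and by the total of the library), covering 46983 genes and 448141 exons. A strand setting for counting is not given in the sources used here. Library totals were inferred from the smallest exon values of these same data. Multiplying by exonic length and the inferred library total gave whole reads for 100% of values (tolerance 0.01).

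From these, log2(RPKM + 0.1) was compared between the ages with limma 3.58.1 in R 4.3.3 (eBayes with trend, 2-sided) over 25903 genes, those reaching 0.1 RPKM in 3 libraries or more, with Benjamini-Hochberg adjustment over all of them. Adding 0.1 shrinks the fold change of genes with low RPKM. A gene was called at an adjusted p under 0.05. Exon use was tested with voom and diffSplice on recovered reads, keeping the longest of overlapping exons that reached 1 RPKM in 3 libraries. Shares and ratios over libraries had exact permutation tests. Whether the pools came from separate litters is not stated, so p-values measure the spread between these libraries. The gene tests (limma, unequal-variance and voom) and the exon test were also run on simulated reads with the same spread setting for every gene. The other steps were not simulated.

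The 9 genes, the lists and the tests were chosen with earlier results of these data known. Named genes are the 9, soluble cyclase subunits, Nos3, Furin, Mme, Prkg2 and Ostn, and of each list the 3 largest rises and falls with a fold over 2 and a mean RPKM of at least 1; for likeness, the 3 nearest genes, of which 1 is not reported here. Alternatives were pseudocounts of 1 and 0.01, other filters, no trend, the study's unequal-variance test, median and quantile scaling, a replicate block, a floor of 10 reads, voom, mitochondrial genes left out, and each library left out; for exons, every exon, unweighted limma and an RPKM of at least 0.5. Promoters came from RefSeq (GRCm38.p6) and exon models from GENCODE M21. Figures used Python 3.11.15 and matplotlib 3.10.9.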

Additional observations from a re-analysis of the deposited data

How the results depend on the processing

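Of the 9 genes, Npr1 and Pde5a kept their call and direction in all 18 alternatives, Nppc and Prkg1 were called in none, and Nppa was called in none. The fold over 2 of Pde5a was not kept in all of them. Its log2 fold change was 0.967 with a pseudocount of 1 and 0.936 without PND2 replicate 1. That of Npr1 was 1.002, just over a fold of 2, with median scaling. Nppb kept its direction, but at -3.32 with a pseudocount of 0.01 (adjusted p = 0.0534) it was no longer called. The same held at -3.30 with no filter (0.0696), no variance trend (0.0855), the unequal-variance test (0.264) and a floor of 10 reads (0.266), at -3.17 with median scaling (0.063), at -3.25 with quantile normalization (0.0593) and at -3.28 with mitochondrial genes left out of the total (0.0519). Corin, at -0.68, was not called with no trend (0.0555), the unequal-variance test (0.147) or the floor (0.141), Npr2, at 0.56, with the unequal-variance test (0.0747) or the floor (0.0625), and Npr3, at -1.42, with the unequal-variance test (0.0576). The genes called lower among the 9 numbered 1 with no trend and with the floor and 0 with the unequal-variance test, against 3. In the wider cGMP list 5 were called lower with a pseudocount of 1 and with the floor and 6 with no trend and with voom on the recovered reads, against 3, and 4 were called higher with the unequal-variance test, against 15. That test called 0 cardiomyocyte markers higher and 0 lower, 4 endothelial markers lower, and 1466 genes higher and 1942 lower; the floor called 0 and 6, 4, and 2440 and 3380. Voom called 4092 genes higher and 5604 lower. The Npr3 share of the receptors differed by -13.7 percentage points in reads not divided by length, against -10.1. The causes of these shifts were not tested.

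Leaving out single libraries gave log2 fold changes of -1.75 to 0.46 for Nppa (0.46 without 4 months replicate 3), 0.09 to 1.15 for Nppc, -4.52 to -2.08 for Nppb and -0.86 to -0.51 for Corin. It gave 1 to 2 genes called lower among the 9, 1 to 2 cardiomyocyte markers called higher and 3403 to 5114 genes called lower in all (3403 without PND2 replicate 3). The difference in Npr2 share, 0.23 percentage points with all libraries, ran from -2.50 to 3.81, and was -2.50 without PND2 replicate 1, -0.63 without PND2 replicate 3 and -1.04 without 4 months replicate 3. Member exons called ran from 0 to 1.

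With the replicate number as a block, Nppb was at -3.30 and not called (adjusted p = 0.0686), the other calls among the 9 did not change, and 3004 genes were called higher and 4163 lower. The labels do not say that the numbers pair the libraries. Deviations from the age means correlated at -0.16 to 0.04 for libraries with the same number and at -0.18 to 0.23 for the others. With 3 libraries an age, whose deviations add up to 0, these correlations cannot show whether the libraries are paired. Nppc rested on 24 to 147 recovered reads a library and the pair of Prkg1 first exons on 71 to 171. The Wilson intervals and the floor of 3 reads cover counting error only, and the intervals of log2 fold changes come from the spread between libraries.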
